A study of Mus musculus with 48 samples.

Results

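The genes described here are 10 less-studied genes, *AI506816*, *Pde4b*, *Hmga1*, *Srm*, *Pik3ip1*, *AA467197*, *Sh2d5*, *Upp1*, *Acot7* and *Nus1*, of the 24973 genes in the deposited table. They were selected on their difference between ischemic and control hemispheres in 2 or more cell types, so these differences are a description, and where a threshold is applied to them it restates the selection and supports nothing. Microglia (MG), astrocytes (AC), pericytes (PC) and endothelial cells (EC), which make up the neurovascular unit around brain vessels, were sorted by flow cytometry from wild-type C57BL/6 male mice aged 12 to 15 weeks. All mice had the middle cerebral artery occluded for 1 h with 23 h of reperfusion. The ipsilateral (ischemic) hemisphere was compared with the contralateral (control) hemisphere of the same mice, with 6 libraries per cell type and hemisphere, each from a pool of 3 to 4 mice. No sham-operated group was analysed here, so both hemispheres come from operated animals.

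The values are normalized counts, that is read counts per gene divided by a size factor of the library, and all fold changes are differences of log2(normalized count + 1). Libraries summed to between 10549900 and 16942165 normalized counts, and the estimated 4900000 to 17100000 reads per library put a floor of 3 reads at no more than 7.1 normalized counts, which covers counting error only. All 16 marker genes of the 4 cell types had their lowest own library above every library of the other cells. For the 12 ipsilateral PC and MG libraries the sample titles name the opposite cell type from the descriptions and column names. The descriptions were followed here, and the markers of these libraries went with the descriptions and not with the titles. Grouped by description, ipsilateral *Des* was at 13587 to 25278 in PC and at 0 to 480 in MG. Ipsilateral *Csf1r* was at 23680 to 106556 in MG and at 0 to 16058 in PC. The PC and MG differences between hemispheres rest on this grouping, whereas those of EC and AC and all contralateral values do not. In sorted bulk samples, fewer cells of a type and less RNA per cell cannot be told apart.

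The 10 genes act in different pathways. *Srm* encodes spermidine synthase, which makes the polyamine spermidine from putrescine, and *Upp1* encodes uridine phosphorylase, which splits uridine into uracil and a ribose phosphate. *Acot7* encodes an acyl-CoA thioesterase that is abundant in brain, and *Nus1* the Nogo-B receptor, a subunit of the enzyme that builds the dolichol lipid needed for N-glycosylation. *Pde4b* encodes a phosphodiesterase that degrades the second messenger cAMP, *Pik3ip1* a transmembrane inhibitor of PI3 kinase, and *Sh2d5* an adaptor with an SH2 domain that binds the Rac regulator Bcr. *Hmga1* encodes a chromatin protein that bends AT-rich DNA, *AA467197* a small mitochondrial protein related to Ndufa4, and *AI506816* is annotated as a transcript without a coding sequence.

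*AA467197* (ENSMUSG00000033213, GRCm38 chromosome 2, 122637850 to 122641191, plus strand) also carries a microRNA, and 79 bases of its exons, 6.6% of them, are shared with the *Mir147* hairpin. The mature sequence of one arm is shown because it lies inside this gene, with its seed (bases 2 to 8) in capitals, as given by RefSeq for GRCm38.p6 at chr2:122640814-122640837 on the plus strand. No value of the microRNA itself was used here.
mmu-miR-147-5p: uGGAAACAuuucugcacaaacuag
RefSeq promoter windows (250 bases before to 50 after a start) were found for 8 of the 10 genes, and 4 motifs were searched on both strands: the E-box CACGTG, the AP-1 site TGACTCA, the hypoxia response core ACGTG, which lies inside the E-box, and the STAT site TTCNNNGAA. Of 32544 promoter windows, 7.2% held the E-box, 5.2% the AP-1 site, 19.7% the hypoxia response core and 8.3% the STAT site. The windows of *AA467197* (chr2:122637637-122637936) and *Upp1* (chr11:9117758-9118057, the first of 3), both on the plus strand, are shown because these are the genes whose windows held an AP-1 site. Capitals mark the E-box and the AP-1 site in the first sequence and the AP-1 site, read on the other strand, in the second.
AA467197 promoter: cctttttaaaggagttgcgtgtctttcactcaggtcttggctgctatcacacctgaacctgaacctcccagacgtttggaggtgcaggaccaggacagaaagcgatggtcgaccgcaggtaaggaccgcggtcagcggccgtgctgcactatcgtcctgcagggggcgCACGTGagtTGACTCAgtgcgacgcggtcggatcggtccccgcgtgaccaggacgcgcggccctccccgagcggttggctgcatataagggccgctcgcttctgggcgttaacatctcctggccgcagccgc
Upp1 promoter: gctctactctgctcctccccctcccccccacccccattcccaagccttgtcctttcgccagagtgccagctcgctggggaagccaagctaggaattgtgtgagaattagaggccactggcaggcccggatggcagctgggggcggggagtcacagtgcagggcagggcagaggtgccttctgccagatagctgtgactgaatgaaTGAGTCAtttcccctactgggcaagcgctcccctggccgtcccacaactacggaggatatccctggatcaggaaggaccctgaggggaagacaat
These matches describe the letters of the windows and not binding of a factor.

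The selection can be stated by cell type. A gene was called where limma gave a p, after Benjamini-Hochberg adjustment, no larger than 0.05, a fold change of at least 1.5 in either direction and more than 10 normalized counts in all 6 libraries of a hemisphere. In EC, 9 of 10 genes were called higher and 1 lower in the ipsilateral hemisphere, beside 0.362% higher and 0.128% lower of all genes tested. In PC, 4 of the 9 genes tested were called, all higher, beside 0.441% higher and 0.581% lower of all genes. In AC, 4 of 10 were called higher, beside 0.334% higher and 0.00655% lower. In MG, 6 of 10 were called higher and 1 lower, beside 4.29% higher and 6.27% lower. Since the genes were selected on these contrasts, nothing is read from the shares or the calls. With 1 replicate left out the calls numbered 2 to 8 in EC, 0 to 3 in PC, 0 to 2 in AC and 4 to 8 in MG, and with replicates 1 to 4 alone they numbered 0, 0, 2 and 4. Of the 25 calls, 3 were made under every alternative run, those of *Pik3ip1*, *AA467197* and *Acot7* in MG.

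**Figure D1:**
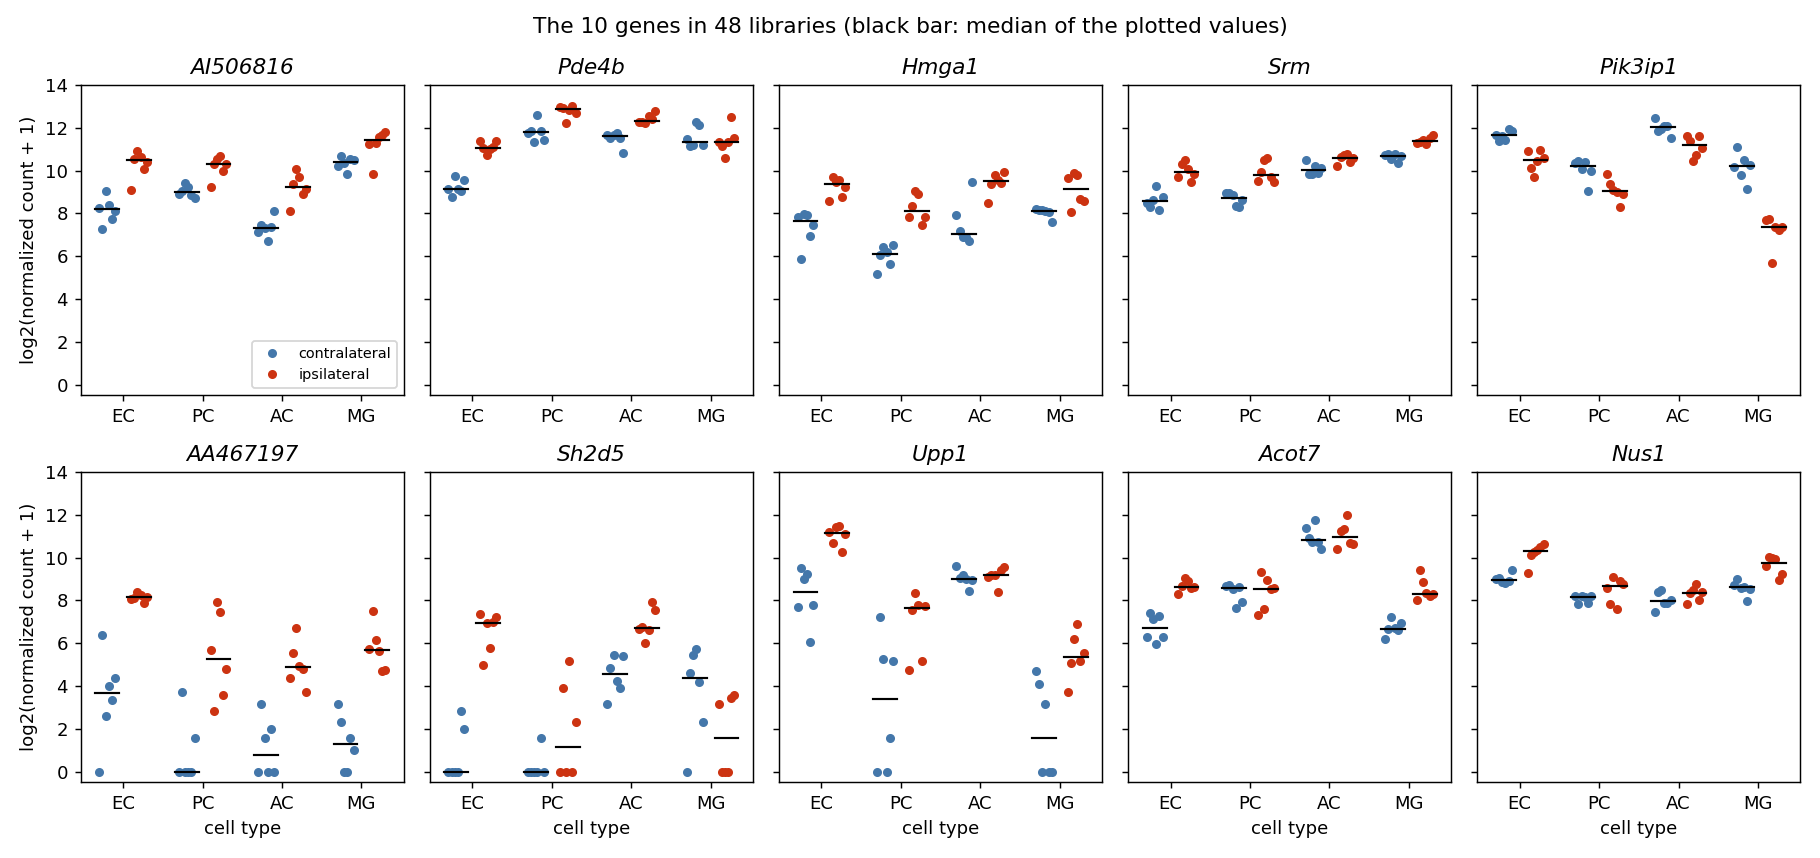
Level of the 10 genes in each of the 48 libraries as log2(normalized count + 1), with 6 contralateral (blue) and 6 ipsilateral (red) libraries per cell type and a bar at the median of the plotted values. *Pik3ip1* lies lower in ipsilateral than in contralateral EC and the other genes lie higher, *Nus1* with overlap, which restates the selection. *AA467197* and *Sh2d5* have contralateral libraries at 0.

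*Pik3ip1* (chromosome 11, 3330401 to 3342971) was the only one of the 10 genes that was lower in the ipsilateral hemisphere in all 24 pairs of hemispheres. In MG its normalized counts were 562 to 2159 (median 1177) contralateral and 50 to 215 (median 163) ipsilateral. These groups did not overlap, and the log2 difference was -2.98 (SE 0.37). In EC the values were 2676 to 3898 (median 3200) contralateral and 829 to 1973 (median 1461) ipsilateral, again without overlap, with a log2 difference of -1.20 (SE 0.22). In PC and AC the groups overlapped, with log2 differences of -0.95 (SE 0.28) and -0.87 (SE 0.23), and neither was called, although the AC difference was called with the replicate number as a block.

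*AI506816* (ENSMUSG00000105987, chromosome 5, 23699070 to 23712667, minus strand) was higher in 23 of 24 pairs. In EC its normalized counts were 153 to 535 (median 294) contralateral and 550 to 1940 (median 1422) ipsilateral. In AC they were 105 to 273 (median 161) and 279 to 1083 (median 608). Neither pair of groups overlapped, and the log2 differences were 2.14 (SE 0.34) in EC and 1.88 (SE 0.31) in AC. In PC, 420 to 685 contralateral normalized counts stood against 596 to 1664 ipsilateral ones, an overlap, with a log2 difference of 1.16 (SE 0.24). The MG groups overlapped, at 922 to 1616 contralateral and 910 to 3524 ipsilateral. The MG difference of 0.89 (SE 0.28) was not called without the block and was called with it.

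*Hmga1* (chromosome 17, 27556620 to 27563674) was also higher in 23 of 24 pairs. Its normalized counts were 35 to 92 (median 68.5) in contralateral and 177 to 533 (median 275) in ipsilateral PC. In EC they were 57 to 249 (median 200) contralateral and 383 to 825 (median 654) ipsilateral. The groups did not overlap in either cell type, with log2 differences of 2.23 (SE 0.38) in PC and 1.89 (SE 0.37) in EC. In AC the log2 difference was 1.92 (SE 0.42) with overlap, since 1 contralateral library was at 695 against 104 to 244 in the other 5, and it was called only with the block. The MG groups also overlapped, at 192 to 292 contralateral and 263 to 956 ipsilateral, with a difference of 1.06 (SE 0.31).

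*Pde4b* (chromosome 4, 102087543 to 102607259) was higher in all 6 pairs of EC, PC and AC and in 3 of 6 pairs of MG. In EC its normalized counts were 438 to 846 (median 571) contralateral and 1697 to 2667 (median 2146) ipsilateral. In AC they were 1809 to 3403 (median 3118) and 4720 to 7013 (median 5150). Both pairs of groups were apart, with log2 differences of 1.86 (SE 0.20) in EC and 0.92 (SE 0.18) in AC. In PC the groups overlapped through 1 contralateral library at 6267, and the log2 difference was 0.97 (SE 0.21). In MG the values overlapped widely, 2272 to 4897 against 1515 to 5829, with a log2 difference of -0.17 (SE 0.29).

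*Srm* (chromosome 4, 148591503 to 148594619) was higher without overlap in 3 cell types. Normalized counts were 286 to 614 (median 378) contralateral and 713 to 1441 (median 992) ipsilateral in EC, a log2 difference of 1.37 (SE 0.24). In PC they were 311 to 500 (median 423) and 696 to 1546 (median 892), a difference of 1.27 (SE 0.24). In MG they were 1299 to 1758 (median 1653) and 2389 to 3240 (median 2675), a difference of 0.77 (SE 0.14). Every ipsilateral library of these cell types lay above every contralateral library of the same type. The AC groups overlapped, with a log2 difference of 0.48 (SE 0.16), which was not called.

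*Upp1* (chromosome 11, 9118103 to 9136170) had its largest counts in ipsilateral EC. There its normalized counts were 1217 to 2855 (median 2281), against 65 to 722 (median 360) in contralateral EC. The groups were apart, and the log2 difference was 2.82 (SE 0.49). In AC the levels of the hemispheres overlapped almost fully, 342 to 773 contralateral and 338 to 757 ipsilateral, with a log2 difference of 0.11 (SE 0.23). In MG the counts were low, 0 to 25 contralateral and 12 to 117 ipsilateral, and the fitted log2 difference of 3.44 (SE 0.96) ranged from 1.76 to 5.11 between pseudocounts of 10 and 0.1. In PC it was 0 to 147 contralateral and 26 to 319 ipsilateral, and the difference was not called.

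*AA467197* was at or near 0 in contralateral PC, AC and MG and low in contralateral EC. In EC its normalized counts were 0 to 82 (median 12) contralateral and 236 to 335 (median 281) ipsilateral. In MG they were 0 to 8 (median 1.5) and 25 to 180 (median 50), and in AC 0 to 8 (median 1.0) and 12 to 104 (median 28.5). None of these groups overlapped. The fitted log2 differences, 4.70 (SE 0.82) in EC, 4.39 (SE 0.74) in MG and 3.89 (SE 0.76) in AC, depend on the pseudocount and ranged from 3.60 to 5.34, 2.39 to 5.77 and 1.85 to 5.68 between pseudocounts of 10 and 0.1. In PC, ipsilateral libraries of replicates 3 and 4 were at 241 and 174 and the others at 6 to 50, with 0 to 12 contralateral, and the difference was not called. A list of 9 neutrophil genes summed to 13946 and 7021 normalized counts in those same PC libraries and to 44 to 5910 in the other 4. Of these, replicate 2 had the sum of 5910 with *AA467197* at 6, and replicate 1 the sum of 44 with *AA467197* at 50. In ipsilateral EC the list summed to 2153 to 10435 in replicates 1 to 4 and to 94 and 270 in replicates 5 and 6, where *AA467197* was at 236 and 285, against 265 to 335 in replicates 1 to 4. The part of other cells in the values of *AA467197* was not tested in any of the 4 cell types.

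*Sh2d5* (chromosome 4, 138250403 to 138261332) was higher in EC and AC. In EC its normalized counts were 0 to 6 (median 0) contralateral and 31 to 163 (median 123) ipsilateral, and in AC 8 to 43 (median 23.0) and 63 to 238 (median 105). Both pairs of groups were apart. The log2 difference of 2.42 (SE 0.48) in AC ranged from 2.0 to 2.47 between the pseudocounts, whereas that of 5.74 (SE 0.77) in EC ranged from 3.20 to 8.03. In MG the values were 0 to 52 contralateral and 0 to 11 ipsilateral, lower in 4 of 6 pairs, with an uncalled log2 difference of -2.01 (SE 1.13). In PC, 0 to 2 and 0 to 35 normalized counts were too low to be tested. *Sh2d5* shares 74 exon bases, 2.0% of them, with *Kif17* on the same strand, and reads that overlap several genes were not counted. Besides *AA467197* with *Mir147*, exon bases are also shared on the opposite strand by *Hmga1* and *Pik3ip1*. *Hmga1* shares 102 (4.8%) with *AI413582* and 22 (1.0%) with *Gm49774*, and *Pik3ip1* 91 (2.1%) with *Gm12592*. The effect of these overlaps on the counts was not tested.

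*Acot7* (chromosome 4, 152178134 to 152271855) was higher in EC and MG and nearly equal in PC and AC. Its normalized counts were 62 to 169 (median 109) contralateral and 316 to 529 (median 400) ipsilateral in EC, a log2 difference of 1.96 (SE 0.33). In MG they were 72 to 146 (median 102) and 258 to 676 (median 317), a difference of 1.80 (SE 0.28). The groups were apart in both. In PC and AC the log2 differences were 0.02 (SE 0.35) and 0.06 (SE 0.29), with overlapping groups.

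*Nus1* (chromosome 10, 52417547 to 52440183) was likewise higher in EC and MG. Its normalized counts were 451 to 677 (median 498) contralateral and 624 to 1580 (median 1269) ipsilateral in EC, a log2 difference of 1.19 (SE 0.23). In MG they were 246 to 504 (median 389) and 496 to 1047 (median 869), a difference of 1.06 (SE 0.23). In both cell types a single contralateral value reached into the ipsilateral range, and all 6 pairs were higher. The differences in PC and AC, 0.37 (SE 0.28) and 0.29 (SE 0.22), were not called.

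**Figure D2:**
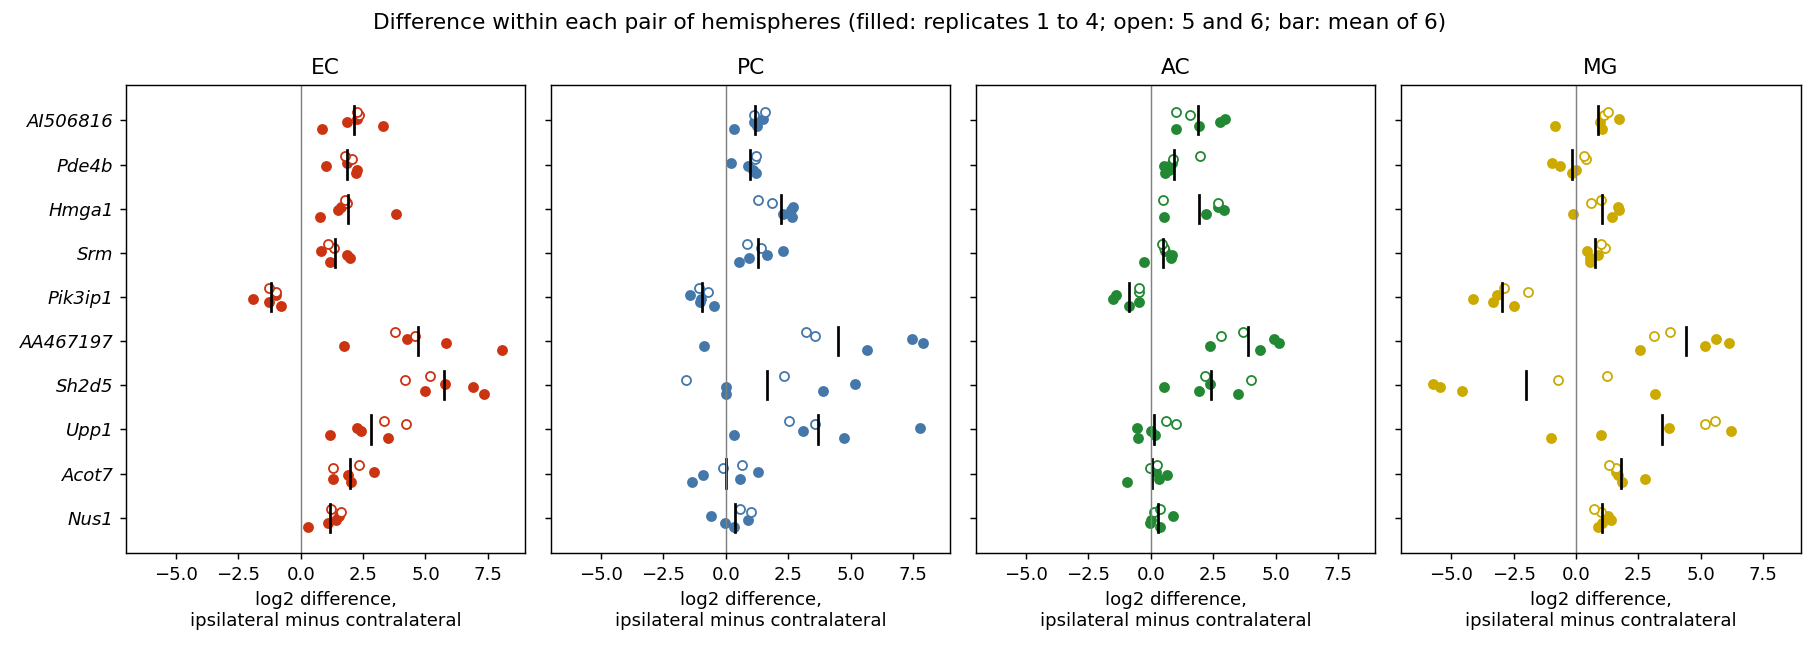
Difference between the hemispheres of each replicate, ipsilateral minus contralateral, as log2(normalized count + 1), for 10 genes in 4 cell types, with replicates 1 to 4 filled, 5 and 6 open and a bar at the mean of 6 pairs. In EC 9 genes lie above 0 and *Pik3ip1* below 0 in all 6 pairs, which restates the selection. In MG *Pde4b*, *Sh2d5*, *AI506816*, *Hmga1* and *Upp1* fall on both sides of 0.

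The calls nearest the threshold were all in AC on the inside, namely *Pde4b* (log2 difference 0.92), *Sh2d5* (2.42) and *AA467197* (3.89). Those nearest on the outside were *AI506816* in MG (0.89), *AA467197* in PC (4.49) and *Hmga1* in AC (1.92). The mean pair difference in EC was 4.96 over replicates 1 to 4 and 4.17 over replicates 5 and 6 for *AA467197*, and 2.34 and 3.78 for *Upp1*. In MG, *Upp1* stood at 2.48 and 5.36, and *Pde4b* at -0.43 and 0.36. Summed microglial markers in ipsilateral EC were 2863 to 21121 normalized counts in replicates 1 to 4 and 276 to 316 in replicates 5 and 6. In ipsilateral PC these sums were 6025 to 28388 and 267 to 277, and in ipsilateral AC 2541 to 10617 and 368 to 480. The median of the sum was 4806 contralateral and 5066.5 ipsilateral in EC, 1258 and 10670 in PC, and 1614 and 3063.5 in AC. The part of these differences in the values of the 10 genes was not tested.

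The levels of the genes in the contralateral hemisphere were compared between cell types by limma on the 24 contralateral libraries. The selection did not use the contrast between cell types, but these libraries entered it as the controls, so the p-values are not fully independent of it. Of 54 comparisons of 9 genes, 35 passed an adjusted p of 0.05 with a fold change of at least 1.5. *AA467197*, with a mean under 10 normalized counts, was not tested. *Sh2d5* reached that mean only through AC and MG, and its called comparisons are part of these counts. Between EC and PC 7 of 9 genes differed, beside 34.1% of all genes tested, between EC and AC 6 of 9 beside 49.5%, and between EC and MG 6 of 9 beside 41.6%. Between PC and AC 7 of 9 differed, beside 46.1%, between PC and MG 5 of 9 beside 47.9%, and between AC and MG 4 of 9 beside 50.8%.

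*Acot7* was highest in AC. Its contralateral mean was 2138 normalized counts in AC, 340 in PC, 113 in EC and 107 in MG. AC exceeded PC (PC minus AC -2.63 on the log2 scale, SE 0.30, adjusted p = 8.43e-08, limma). PC exceeded EC (EC minus PC -1.63, adjusted p = 9.63e-05, limma), and EC and MG differed by 0.01 (SE 0.30). *AI506816* was the single gene whose 4 cell types all differed from their neighbours in order, with means of 1319 in MG, 526 in PC, 302 in EC and 168 in AC. Its smallest neighbouring difference, between EC and AC, was 0.79 (SE 0.26, adjusted p = 0.0123, limma).

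*Pde4b* was lowest in EC, at 618 normalized counts, and stood at 3730 in PC, 3195 in MG and 2942 in AC, levels that did not differ beyond their spread. EC lay below AC by a log2 difference of -2.26 (SE 0.24, adjusted p = 2.2e-08, limma). *Pik3ip1* was highest in AC and EC, at 4162 and 3229, which differed by -0.35 (EC minus AC, SE 0.26), and lower in MG and PC, at 1236 and 1104. EC exceeded MG by 1.49 (SE 0.26, adjusted p = 3.81e-05, limma). *Upp1* was found in AC and EC, at 536 and 386, and was low in PC and MG, at 36.8 and 8.2. EC exceeded PC by 5.0 (SE 1.10, adjusted p = 0.000785, limma). Contralateral PC libraries were at 0 to 147, with 3 of 6 at or under 3 reads, so this size depends on the pseudocount.

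*Srm* had means of 1595 normalized counts in MG and 1087 in AC, and of 412 in PC and 400 in EC. AC exceeded PC (PC minus AC -1.40, SE 0.19, adjusted p = 1.19e-06, limma), whereas AC and MG, at -0.57 (SE 0.19), stayed under the minimum difference. *Hmga1* was lowest in PC, at 66.5, and its means of 179 in EC, 237 in AC and 266 in MG did not differ beyond their spread. *Nus1* was highest in EC, at 518, and exceeded AC, at 264, by 0.99 (SE 0.20, adjusted p = 0.00023, limma), while no neighbours in its order differed by the rule. *Sh2d5* was at 25.3 in AC and 23.2 in MG and at 1.5 in EC and 0.3 in PC. Its contralateral libraries were at 0 to 6 in EC and 0 to 2 in PC, at or near the floor of 3 reads. EC minus MG was -2.91 (SE 0.79), a size that rests on the pseudocount, and no p is given.

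**Figure D3:**
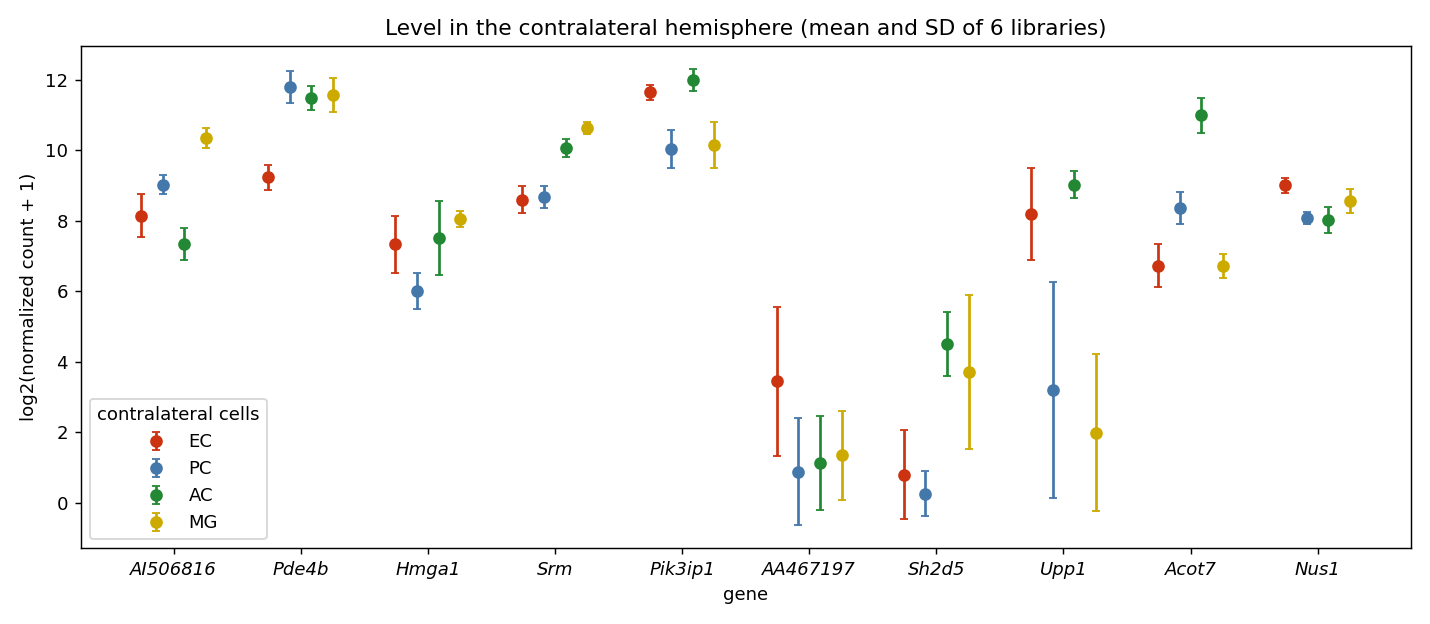
Contralateral level of the 10 genes as the mean and SD of log2(normalized count + 1) over 6 libraries in EC, PC, AC and MG. *Acot7* stands highest in AC, *AI506816* and *Srm* in MG, and *Pde4b* lowest in EC, while *AA467197* is low in all 4 cell types.

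For each gene, the genes with the most similar course were ranked by Pearson's r over 48 libraries after the mean of each cell type was subtracted. The points share libraries and the split into hemispheres, and the values are a description. *AI506816* and *Hmga1* were each other's first neighbour (r = 0.86), and *Lrrc59* was among the first 3 of both (0.85 and 0.82). *Pde4b* had *Tubb6*, a tubulin, and *Sh2d5* as its first neighbours (both r = 0.72). *Tubb6* was also among the first 3 of *AI506816* (0.85), *Hmga1* (0.81) and *AA467197* (0.79). *Srm* was closest to *Ctsb* (0.84) and had *Hmga1* among its first 3 (0.81). *Pik3ip1* was closest to *Rnf167* (0.90), *AA467197* to *Plin2* (0.81), *Upp1* to *Hsd17b12* (0.75), *Acot7* to *Car13* (0.77) and *Nus1* to *Adamts9* (0.72).

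The other genes of the pathways were read from 9 lists of 199 genes, of which 195 were in the table. In EC 2 of 168 tested genes rose, or 1.19%, and 0 fell, beside 0.362% and 0.128% of all genes. In PC 0 of 170 rose and 1 fell, or 0.588%, beside 0.441% and 0.581%. In AC 0 of 177 changed by limma, beside 0.334% higher and 0.00655% lower. An unadjusted p of at most 0.05 was reached by 19 genes in EC, 33 in PC, 17 in AC and 57 in MG. The share of all genes at that p was not taken, so nothing is read from these numbers. In MG 11 of 166 rose, or 6.63%, and 13 fell, or 7.83%, beside 4.29% and 6.27% of all genes. Of these 27 calls, 4 were made under every alternative run, those of *Eif5a*, *Crem*, *Pik3r1* and *Inpp4a* in MG, and the others were lost under at least 1. The median log2 change over all genes tested was -0.03 in EC, -0.04 in PC, -0.06 in AC and -0.18 in MG.

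Markers of microglia and of blood cells also moved between the MG groups. The median was lower in the ipsilateral hemisphere for 9 of 10 microglial genes, whose sum was 575004 to 709104 normalized counts contralateral and 286044 to 492802 ipsilateral. It was higher for 6 of 6 monocyte genes, summing to 316 to 1431 and 1602 to 4226, and for 8 of 9 neutrophil genes. The exception was the neutrophil gene *Csf3r*, at 5562 to 7882 contralateral and 718 to 3457 ipsilateral, with medians of 6797 and 2401. With *Csf3r* included, the 9 neutrophil genes summed to 6423 to 8037 contralateral and 4388 to 19551 ipsilateral, with medians of 7234 and 5148.5. The ipsilateral sum of 19551 was that of replicate 2, and the other libraries were at 4388 to 6977. *Ly6g*, which defines neutrophils, was at 0 in all contralateral and at 0 to 6 in ipsilateral MG. The part of these cells in the MG values of the 10 genes and of the pathway genes was not tested.

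Around *Srm*, the polyamine list had 1 gene that rose in EC and 3 that rose and 1 that fell in MG, of 18 tested, with a median of 0.51 in MG. Over all genes tested, 0.362% rose in EC, and 4.29% rose and 6.27% fell in MG, where the median was -0.18. *Odc1*, ornithine decarboxylase, which makes the putrescine that Srm uses, rose in EC, with 335 to 679 normalized counts contralateral and 917 to 3332 ipsilateral, a log2 difference of 1.88 (SE 0.34, adjusted p = 0.0248, limma), without overlap. In MG *Arg1* and *Arg2*, arginases, rose by 2.62 (SE 0.48, adjusted p = 0.00369, limma) and 2.73 (SE 0.67, adjusted p = 0.0182, limma). *Arg2* was low there, at 1 to 18 normalized counts contralateral and 22 to 92 ipsilateral, so its size depends on the pseudocount. Also in MG, *Eif5a*, the translation factor that carries a spermidine-derived residue, rose by 0.97 (SE 0.19, adjusted p = 0.00487, limma). *Paox*, a polyamine oxidase, fell by 1.04 (adjusted p = 0.0107, limma). *Sms*, spermine synthase, was not called in any cell type, with log2 differences of -0.83 in EC, 0.03 in PC, -0.20 in AC and 0.33 in MG.

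Around *Pik3ip1*, 7 of 31 PI3K genes tested in MG fell and 0 rose, with a median of -0.51, and none of 32 was called in EC, PC or AC. Over all genes tested in MG, 6.27% fell and 4.29% rose, with a median of -0.18. *Inpp4a*, a phosphoinositide phosphatase, was at 167 to 334 normalized counts contralateral and 71 to 101 ipsilateral in MG, a log2 difference of -1.50 (SE 0.25, adjusted p = 0.00199, limma). *Pik3r1*, a regulatory PI3K subunit, fell by 0.93 (adjusted p = 0.0114, limma), *Foxo3* by 1.21 (adjusted p = 0.0219, limma) and *Pik3cg*, a catalytic subunit, by 0.94 (adjusted p = 0.0318, limma). *Pik3ap1*, an adaptor of PI3K, was uncalled in all 4 cell types.

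Around *Upp1*, 4 of 25 pyrimidine genes rose and 2 fell in MG, beside 4.29% and 6.27% of all genes, with none called in the other cell types. *Uck2*, a uridine kinase, rose, with 30 to 106 normalized counts contralateral and 114 to 276 ipsilateral, a log2 difference of 1.73 (SE 0.37, adjusted p = 0.00798, limma), and *Ctps* rose by 0.72 (adjusted p = 0.0349, limma). *Tk2*, mitochondrial thymidine kinase, fell by 1.16 (adjusted p = 0.0126, limma) and *Uckl1* by 0.90 (adjusted p = 0.0404, limma). *Upp2*, the paralog of *Upp1*, was too low to be tested, at 0 to 30 normalized counts.

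Around *Pde4b*, 1 of 29 cAMP genes fell in PC and 1 of 26 rose and 2 fell in MG. The shares over all genes were 0.581% lower in PC, and 4.29% higher and 6.27% lower in MG. *Adcy5*, an adenylyl cyclase, fell in PC by 1.21 (SE 0.21, adjusted p = 0.019, limma). In MG *Adcy8* fell by 3.83 (SE 0.76, adjusted p = 0.0056, limma), with 14 to 87 normalized counts contralateral and 0 to 7 ipsilateral. *Adcy7* fell by 0.89 (adjusted p = 0.0218, limma) and *Crem*, a transcription factor of the cAMP response, rose by 1.45 (adjusted p = 0.00619, limma). *Pde4a* and *Pde4d* were not called in any cell type.

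The remaining lists held few calls. *Bcr*, the partner of Sh2d5, rose in EC, with 316 to 643 normalized counts contralateral and 1105 to 1795 ipsilateral, a log2 difference of 1.69 (SE 0.21, adjusted p = 0.00304, limma), and *Rac3* fell in MG by 1.35 (adjusted p = 0.0331, limma), whereas *Sh2d3c* was not called. In MG *Hmgn1* rose by 0.91 (adjusted p = 0.0384, limma), *Acot9* by 0.66 (adjusted p = 0.0361, limma) and *Alg3* by 0.69 (adjusted p = 0.0349, limma). *Hmgb2*, *Acot1*, *Ndufa4* and *Dhdds*, the partner subunit of Nus1, were not called in any cell type, and *Hmga2* was too low to be tested. The log2 differences of *Dhdds* were 0.19 (SE 0.21) in EC and 0.47 (SE 0.20) in MG, where those of *Nus1* were 1.19 and 1.06.

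**Figure D4:**
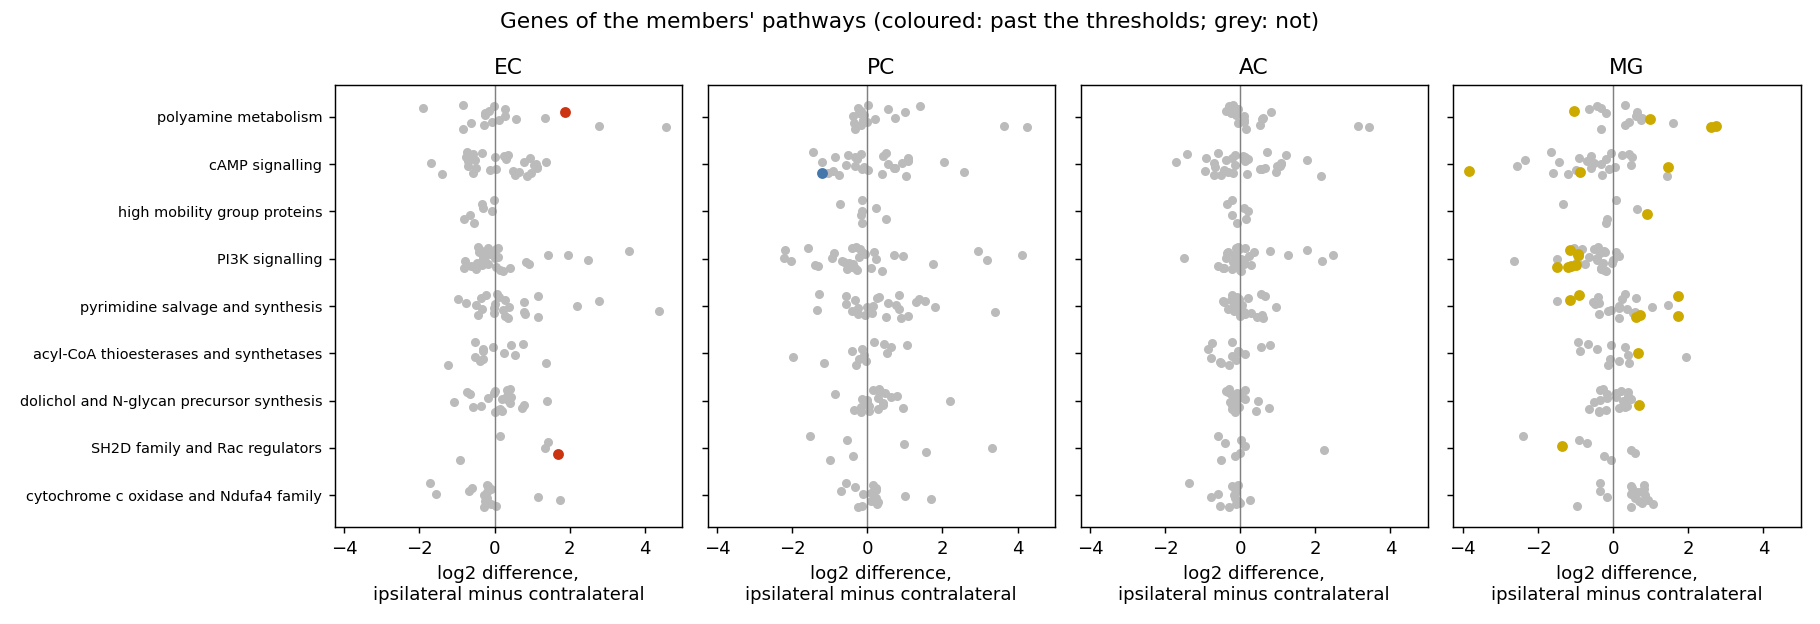
Log2 difference between hemispheres for the tested genes of 9 pathway lists in each cell type, with genes past the thresholds in colour and the others in grey. Coloured points are 2 in EC, 1 in PC and none in AC, and in MG 24, with all 7 of the PI3K list below 0.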

How the data were processed

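RNA of sorted cells (about 250 pg per library, SMART-Seq HT) was sequenced by the authors, who trimmed the reads with Trimmomatic 0.38, aligned them with STAR 2.6.1d to GRCm38, counted them with featureCounts 1.6.3 without multimapping or multi-gene reads and normalized them with DESeq2 1.18.1. The values the authors deposited are normalized counts rounded to whole numbers, treated here as a score and not as raw counts, so no count model was used. In R 4.3.3, limma 3.58.1 (lmFit, eBayes with trend) was fitted to log2(normalized count + 1) for genes averaging 10 or more normalized counts, two-sided, in 12 libraries per cell type or 24 contralateral libraries, after it was tested on simulated data. Python 3.11.15, numpy 2.4.6, pandas 2.3.3 and matplotlib 3.10.9 made summaries and plots. Same-numbered hemispheres were taken to come from the same pooled mice, which is inferred from the replicate numbers. Their deviations correlated at 0.12 to 0.37 on average, with single pairs at -0.07 to 0.64, against averages of -0.07 to -0.02 for different numbers. Unless the block is named, the SE, adjusted p and calls come from fits that did not use this pairing. A fit with the replicate number as a block was run as an alternative. Genes and lists were chosen with earlier results of these data known. Besides the 10 genes, those named are the called genes of each list, up to 4 by the smallest adjusted p, relatives chosen beforehand, and the first 3 neighbours by r, of which the first is given and others where they recur. A result on 1 further gene is left out.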

Additional observations from a re-analysis of the deposited data

Results flagged for a closer look

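Of 80 groups of 6 libraries (10 genes, 4 cell types and 2 hemispheres), 12 had a lowest or highest library far from the other 5 by Dixon's criterion. The criterion marks about 1 in 20 groups of normally distributed values. These values are counts, in some groups mostly 0, and the rate over all genes was not measured. Nothing is therefore read from the number of groups marked. *Pde4b* was at 1809 normalized counts in contralateral AC replicate 6, against 2915 to 3403 in the others, at 6267 in contralateral PC replicate 4, against 2545 to 3703, and at 5829 in ipsilateral MG replicate 5, against 1515 to 2959. *Hmga1* was at 695 in contralateral AC replicate 6, against 104 to 244, and at 192 in contralateral MG replicate 6, against 269 to 292. *AA467197* was at 82 in contralateral EC replicate 2, against 0 to 20, and at 12 in contralateral PC replicate 2, against 0 to 2. It was also at 104 in ipsilateral AC replicate 3, against 12 to 46, and at 180 in ipsilateral MG replicate 2, against 25 to 69. *Sh2d5* was at 2 in contralateral PC replicate 5, against 0 in the other 5, which is under the floor of 3 reads. *Upp1* was at 147 in contralateral PC replicate 2, against 0 to 37, and *Nus1* at 677 in contralateral EC replicate 6, against 451 to 525.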

How the results depend on the processing

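The number of the 10 genes called between hemispheres ranged from 2 to 8 in EC, 0 to 3 in PC, 0 to 2 in AC and 4 to 8 in MG when 1 replicate was left out, against 10, 4, 4 and 7 with all. With replicates 1 to 4 alone it was 0, 0, 2 and 4. Without a filter it was 2 in PC and 1 in AC, and in AC it was also 1 with a pseudocount of 0.1 and with a minimum mean of 50. Pathway genes called were 2, 1, 0 and 24 in EC, PC, AC and MG. They ranged from 1 to 3, 0 to 2, 0 to 0 and 9 to 29 with 1 replicate left out, and were 0 in EC, 0 in PC and 11 in MG with replicates 1 to 4. The joint fit of 48 libraries gave 7 in EC, 3 in PC and 15 in MG, no filter gave 15 in MG, and a minimum mean of 50 gave 2 in PC. With the replicate block, which uses the pairing of hemispheres, pathway genes called were 5 in PC and 1 in AC, and of the 10 genes *AI506816* in MG and *Hmga1* and *Pik3ip1* in AC were also called. Of 35 contralateral differences called, 33 to 37 were called with 1 replicate left out. Uncalled contralateral differences that changed sign were *Pde4b* AC minus MG (-0.19 to 0.03 with 1 replicate left out, 0.13 with replicates 1 to 4), *Hmga1* EC minus AC (-0.43 to 0.18, and 0.17), *Srm* EC minus PC (-0.26 to 0.06), *Acot7* EC minus MG (-0.14 to 0.16, and 0.0 rescaled) and *Nus1* PC minus AC (-0.06 to 0.20). No called difference of the 10 genes changed sign under these alternatives, and the cause of lost calls was not tested, fewer samples apart. Values under about 7 normalized counts lie at or below 3 reads in the shallowest library.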
